A study of Mus musculus with 8 samples.

Results

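The 4 genes described here stood near the head of a ranking of KO against control in the dentate gyrus of the Derlin-1 line: Pla2g2f and Tmem255a, which were lower in Derlin-1 KO mice, and Scgn and Cited4, which were higher. They were selected on the signals of the 4 Derlin-1 arrays, for a small spread between replicates together with a difference between KO and control, among genes whose signal was well above background in at least 1 of its groups. Each is read by 1 probe on the array, so the 4 genes are 4 probes, out of 19893 genes and 39937 probes kept after a filter on dim signals. All 4 passed that filter. Because the values of the Derlin-1 line chose the genes, their levels there are given as a description with no test. They are tested only in the Derlin-2 line, whose difference between KO and control the rule did not name. The spread of the Derlin-2 replicates may have entered the choice, so standard errors and intervals there may not be free of it.

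Proteins of the Derlin family sit in the membrane of the endoplasmic reticulum (ER), where they help to clear misfolded proteins, and the study set mice lacking either protein in the central nervous system against control mice. RNA of the dentate gyrus, the region of the hippocampus in which neurons are also born in the adult, was measured in male C57BL/6 mice of 8 to 9 weeks on 8 1-colour Agilent arrays, 2 in each of 4 groups. Derlin-1 control mice were Derlin-1flox/flox and Derlin-2 control mice were Derlin-2flox/flox, with no Cre, while the KO mice of each line carried the same floxed gene plus Cre recombinase under the nestin promoter. That promoter is active in neural precursors, so that neurons and glia descended from them lose the gene whereas microglia and endothelium, which have another origin, keep it. Both KO groups carry Cre and neither control group does, so that an effect of Cre and one of the lost gene cannot be told apart. For KO samples the genotype label gives the floxed allele alone, so that titles decided the groups. The labels do not say whether an array held RNA of 1 mouse or of several, and p-values measure only the spread between these arrays. The arrays of the Derlin-1 line shared 1 slide and those of the Derlin-2 line another, so that slide and line cannot be told apart, and levels are compared within a line.

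The arrays resembled each other closely, with 67.5 to 70.3% of 56605 probes well above background and correlations within groups of 0.987 to 0.995. Of the probes for the deleted genes, the brighter Derl1 probe had a log2 difference of -0.20 in Derlin-1 KO and the dimmer one of 0.46, so that the array does not show the loss of Derl1 on its own, and whether the probes lie in the deleted part is not known here. At the level of protein, the paper reports hardly any Derlin-1 staining in the hippocampus or dentate gyrus of this KO line. Both Derl2 probes were lower in Derlin-2 KO, with log2 differences of -0.65 and -1.05. The labelled tissue was checked on 8 markers of granule neurons, the main neuron of the dentate gyrus, and all 8 were measured. Both Derlin-1 KO arrays lay below both control arrays for 2 of the 8, Plk5 and C1ql2, with log2 differences of -1.01 and -0.54, where 17.9% of all genes did so. The other 6 overlapped. Dsp differed by -0.33, Stxbp6 by -0.29, Lct by -0.076, Tdo2 by -0.0086, Prox1 by 0.080 and Calb1 by 0.11. The median log2 difference of the 8 markers was -0.18.

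The 4 genes differ in what they encode. Pla2g2f is a secreted phospholipase A2, an enzyme family that releases fatty acids from membrane phospholipids and so supplies lipid mediators. Scgn encodes secretagogin, a calcium-binding protein with EF-hand motifs related to calbindin and calretinin, which mark particular kinds of neurons in the hippocampus. Tmem255a encodes a protein that spans the membrane several times and about which little is known. Cited4 encodes a nuclear protein without a DNA-binding domain that binds the coactivators CBP and p300 and so changes the output of other transcription factors.

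RefSeq promoter sequences were matched to all 4 genes by symbol. They are shown because ER stress and the transcription factor Stat5b are subjects of the study, and short DNA motifs are known for both. The 250 bases before the annotated start are printed 5′ to 3′ on the strand of the gene in build GRCm38.p6, at chr4:138757599-138757848 on the minus strand for Pla2g2f, chr13:23991215-23991464 on the minus strand for Scgn, chrX:38252482-38252731 on the minus strand for Tmem255a and chr4:120666313-120666562 on the plus strand for Cited4. Capitals mark matches on either strand to the motifs searched, which were the 2 pieces of the ER stress element (CCAAT and CCACG), the core of ATF and CREB sites (TGACG), the AP-1 motif (TGANTCA) and the STAT motif (TTCNNNGAA).
Pla2g2f: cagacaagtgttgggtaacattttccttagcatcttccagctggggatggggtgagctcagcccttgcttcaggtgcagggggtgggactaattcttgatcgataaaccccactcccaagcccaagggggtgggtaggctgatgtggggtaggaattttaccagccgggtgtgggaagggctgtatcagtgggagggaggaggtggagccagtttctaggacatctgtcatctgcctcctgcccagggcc
Scgn: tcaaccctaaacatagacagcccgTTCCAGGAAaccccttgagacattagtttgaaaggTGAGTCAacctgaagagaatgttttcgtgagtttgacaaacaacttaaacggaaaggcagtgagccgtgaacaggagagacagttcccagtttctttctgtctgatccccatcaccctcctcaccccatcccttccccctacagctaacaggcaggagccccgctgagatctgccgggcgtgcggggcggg
Tmem255a: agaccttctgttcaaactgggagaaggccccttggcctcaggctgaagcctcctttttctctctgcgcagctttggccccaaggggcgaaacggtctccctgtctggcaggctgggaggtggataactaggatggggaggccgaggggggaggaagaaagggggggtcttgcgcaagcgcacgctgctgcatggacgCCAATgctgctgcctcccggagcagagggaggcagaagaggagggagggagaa
Cited4: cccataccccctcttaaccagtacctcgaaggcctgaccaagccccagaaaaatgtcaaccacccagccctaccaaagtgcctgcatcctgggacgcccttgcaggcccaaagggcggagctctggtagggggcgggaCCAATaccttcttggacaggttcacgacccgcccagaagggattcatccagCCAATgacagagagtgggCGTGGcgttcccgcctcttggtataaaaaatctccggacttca

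Pla2g2f and Scgn, unlike the others, held no CCAAT. That motif was found in Cited4, 61 to 57 and 112 to 108 bases before the start, and in Tmem255a, 53 to 49 bases before it, against 33.8% of 32851 upstream windows of the same length. Cited4 also held CCACG on the opposite strand, 43 to 39 bases before the start, a motif present in 28.3% of windows. The complete ER stress element, in which both pieces stand on 1 strand 9 bases apart (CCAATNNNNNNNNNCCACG), was in none of the 4 and in 0.113% of windows. Scgn held the STAT motif as TTCCAGGAA, 226 to 218 bases before the start, and the AP-1 motif as TGAGTCA, 191 to 185 bases before it, where 7.02% and 6.75% of windows held a match. TGACG, found in 17.8% of windows, was in none of the 4, and Pla2g2f matched none of the motifs. The windows of the 4 genes had a GC content of 53.2 to 62.4%, above the median of 52.4% over all windows. A match is a description of the letters and shows no bound factor.

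Pla2g2f was about 2.27-fold lower in Derlin-1 KO than in control. Its level, the log2 of the quantile-normalized signal, was 8.03 and 8.15 in Derlin-1 control and 6.99 and 6.83 in Derlin-1 KO, each on 2 arrays. The groups did not overlap, and a gap of 1.04 separated the lowest control from the highest KO array. Mean levels of 8.09 ± 0.085 (SD, n = 2) and 6.91 ± 0.11 (SD, n = 2) gave a log2 difference of -1.18. On the Derlin-2 arrays the level was 7.71 and 7.80 in control and 7.47 and 7.64 in KO. Both Derlin-2 KO arrays lay a little under both controls. The log2 difference there was -0.20 with a standard error of 0.13 and a 95% interval of -0.55 to 0.15 (limma, adjusted p = 0.999), so that no difference was detectable.

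Scgn was measured well above background only in Derlin-1 KO. Its level was 4.05 and 3.75 in Derlin-1 control, neither well above background, and 5.76 and 5.57 in Derlin-1 KO, both well above it. Before normalization the background-subtracted signals were 16.3 and 11.7 in control and 57.2 and 49.0 in KO, beside local background levels of 31 to 35 around these spots. The measured difference was 1.76 (log2), and since the control gives only a bound, the KO level was at least 2.93-fold higher. The bound depends on the background correction, since normexp, a model-based alternative to plain subtraction, gave a difference of 0.65 (log2). It sets the mean KO level against the higher of the control signal and the lowest signal called well above background on each control array. The Derlin-2 arrays gave levels of 2.07 and 2.44 in control and 2.73 and 2.50 in KO, with none of the 4 arrays well above background. No fold is therefore given for that line, in which limma gave an adjusted p of 0.999.

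Tmem255a had the smallest difference and the closest replicates of the 4. Its level was 6.09 and 6.06 in Derlin-1 control and 5.29 and 5.26 in Derlin-1 KO, with all 4 arrays well above background. The means of 6.07 ± 0.020 (SD, n = 2) and 5.28 ± 0.025 (SD, n = 2) differed by -0.79 (log2), a level 1.73-fold lower in KO. The signals before normalization were low, at 78.4 and 63.4 in control and 40.9 and 39.3 in KO. The order was turned in the Derlin-2 line, where the level was 5.86 and 5.88 in control and 6.06 and 6.10 in KO, and a gap of 0.18 separated the groups. That log2 difference of 0.21 had a standard error of 0.11 and a 95% interval of -0.097 to 0.52 in limma, which borrows spread from all probes (adjusted p = 0.999), and it did not pass the threshold.

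Cited4 was 2.35-fold higher in Derlin-1 KO than in control. The level was 6.82 and 6.78 in Derlin-1 control and 8.07 and 7.99 in Derlin-1 KO, with a gap of 1.17 between the groups. Group means of 6.80 ± 0.031 (SD, n = 2) and 8.03 ± 0.057 (SD, n = 2) differed by 1.23 (log2). Derlin-2 levels were 6.89 and 6.80 in control and 6.94 and 6.67 in KO, and the groups overlapped. The difference of -0.035 (log2) had a standard error of 0.15 and a 95% interval of -0.45 to 0.38 (limma, adjusted p = 0.999).

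**Figure D1:**
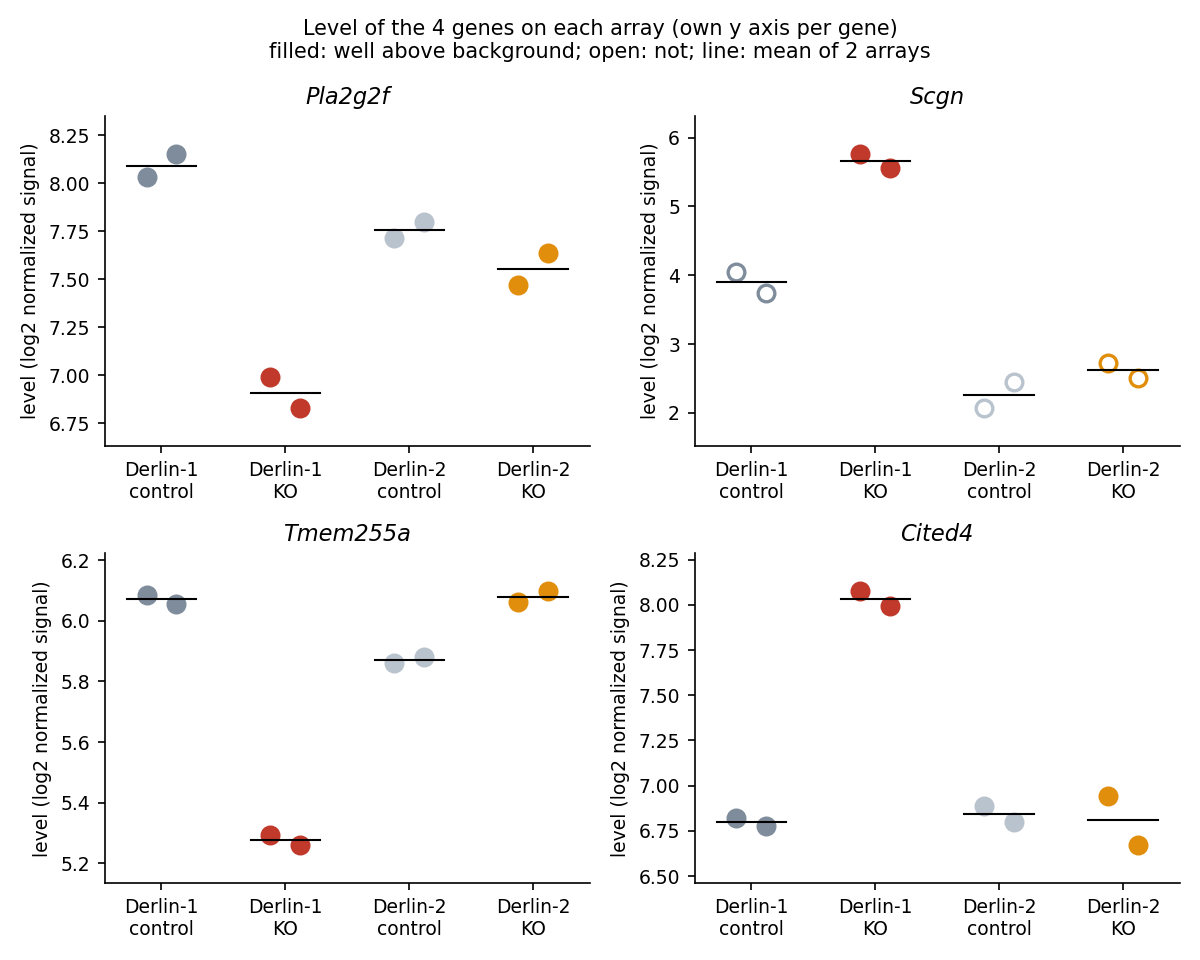
Level (log2 normalized signal, own vertical axis per gene) of Pla2g2f, Scgn, Tmem255a and Cited4 on the 8 arrays, with 1 point per array, filled where the probe was well above background and open where it was not, and a line at the mean of each group of 2. The Derlin-1 KO pair is lowest for Pla2g2f and Tmem255a and highest for Scgn and Cited4, and Scgn is filled in that group alone.

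Each line had its own slide, so that an order of the groups over both lines cannot be told apart from the slide and is given only as a description. The Derlin-1 KO pair was at an end of that order for each gene. For Pla2g2f the order from the highest was Derlin-1 control, Derlin-2 control, Derlin-2 KO and Derlin-1 KO, and no 2 neighbouring groups overlapped. For Tmem255a, Derlin-2 KO and Derlin-1 control overlapped at the top, followed by Derlin-2 control and, well apart, Derlin-1 KO. For Cited4 the 3 groups below Derlin-1 KO overlapped, and for Scgn only Derlin-1 KO could be ordered. Both Derlin-1 KO arrays lay beyond all 6 other arrays for 4 of 4 genes, where 16.4% of 19675 genes did so, but the rule used these arrays and nothing is read from that count. For Pla2g2f the Derlin-1 control arrays also lay beyond all others, at the upper end.

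The genes did not have the widest differences. Among the 39933 probes fitted in the Derlin-1 line, Cited4 ranked 195 by the size of its difference, Pla2g2f 220 and Tmem255a 761, and Scgn was not ranked because its difference is a bound. A model over all 8 arrays, the measure nearest to the rule, ranked the 4 genes 2 to 5 by p-value. Their order was Pla2g2f, Cited4, Scgn and Tmem255a. On the 4 Derlin-1 arrays alone the ranks by p-value, in that order, were 17, 9, 11 and 41. The 8-array model pools the spread of both lines. Amelx, in first place by that model, was well above background on none of the 4 Derlin-1 arrays. The genes just outside the choice, each by the probe that ranked, were 4930563M20Rik, Fxyd7, Slc17a1, Ift43 and Derl3. Fxyd7 had a log2 difference of -0.93 (-0.83 by its brightest probe) and Derl3 of 2.12. The probe of 4930563M20Rik was well above background in KO alone and at least 1.13-fold higher there, and that of Ift43 was well above background in control alone and at least 2.46-fold lower in KO, while the brightest Ift43 probe differed by -0.019. Slc17a1 rests on 1 control array, the other spot being marked as an outlier, and its difference turned from 1.45 to -0.42 with the deposited log2 values. Derl3, the third gene of the Derlin family, also had a log2 difference of 1.21 in the Derlin-2 line.

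No probe passed an adjusted p of 0.05 in either line when each was fitted on its own 4 arrays, a share of 0% called among 39933 probes in the Derlin-1 line and of 0% among 39787 in the Derlin-2 line. At an unadjusted p under 0.05 there were 2813 probes for Derlin-1 and 1811 for Derlin-2, and a limma model over all 8 arrays called 0 and 14. The KO arrays lay on 1 side of both control arrays for 34.1% of 19832 genes in the Derlin-1 line and for 32.6% of 19691 in the Derlin-2 line. The Derlin-2 arrays were separated in this way for 3 of the 4 genes, Pla2g2f, Scgn and Tmem255a, of which Scgn was not well above background. For 2 arrays against 2, the smallest two-sided p that an exact permutation test allows is 0.333.

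**Figure D2:**
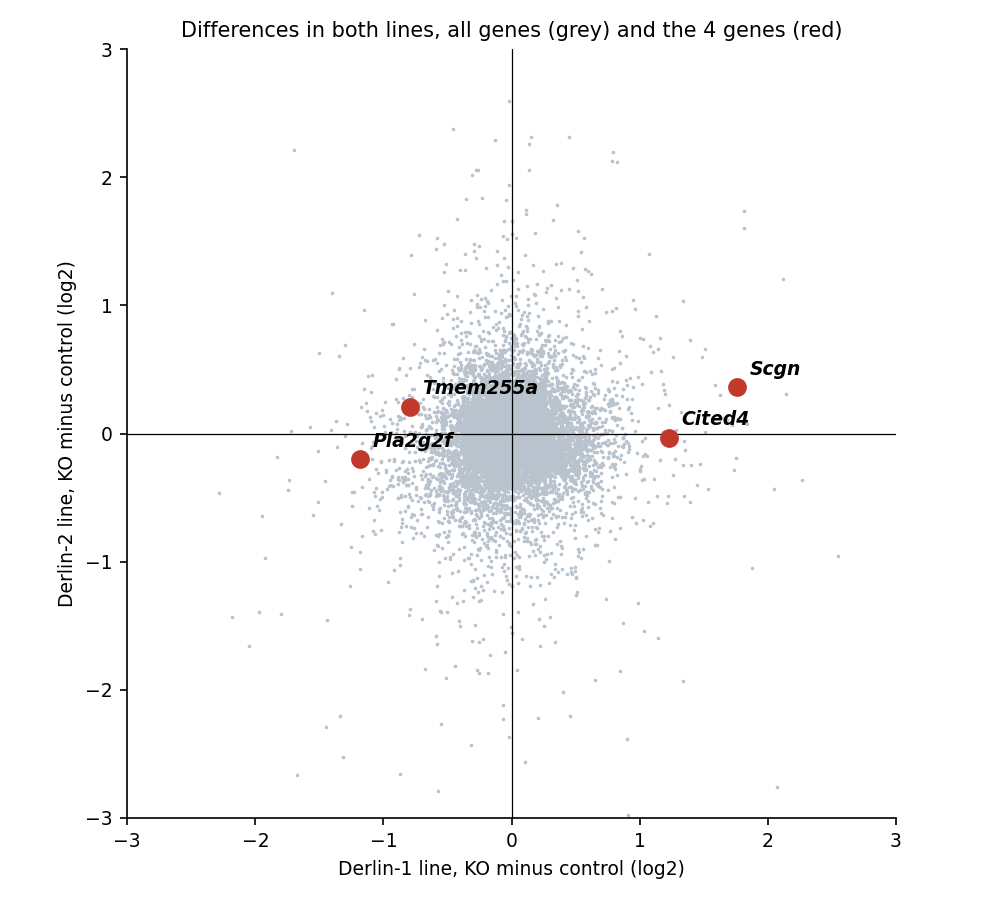
Difference of KO minus control (log2) in the Derlin-1 line (horizontal) and in the Derlin-2 line (vertical), with 1 grey point for each of 19790 genes and the 4 genes in red; 18 genes beyond 3 on either axis are not drawn. The 4 genes lie far from 0 along the Derlin-1 axis, which chose them, and close to 0 along the Derlin-2 axis, at -0.20 for Pla2g2f, 0.21 for Tmem255a and -0.035 for Cited4, where none passed the test and Scgn was not well above background.

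For each gene the 3 most similar profiles over the 8 arrays were sought among 18060 or 18061 genes well above background on all of them, by the mean absolute difference after each profile was centred on its own mean. Closest to Pla2g2f were Tdrd12 (0.15), Nhlh1 (0.16) and Gpc3 (0.18), where the median gene stood at 0.39. Nhlh1 is a transcription factor of developing neurons and Gpc3 a proteoglycan of the cell surface. Closest to Tmem255a were Kcnj8, a potassium channel subunit of pericytes, at 0.085, Tesc, a calcium-binding protein, at 0.098 and D7Wsu130e at 0.10. Each of these 3 was lower in Derlin-1 KO and higher in Derlin-2 KO, as Tmem255a was. Kcnj8 differed by -0.59 and 0.14 (log2), Tesc by -0.47 and 0.16, and D7Wsu130e by -0.74 and 0.24.

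Closest to Cited4 were Slc7a3, a transporter of cationic amino acids, at 0.13, Chrdl2 at 0.17 and D230018H15Rik at 0.17. Slc7a3 was higher by 1.04 (log2) in Derlin-1 KO and differed by -0.038 in the Derlin-2 line. Closest to Scgn were Epha10, Tbx22 and Cd300lf at 0.41, 0.47 and 0.53, where the median gene stood at 1.17. These distances are larger than for the other genes, but Scgn itself had a mean absolute deviation from its own mean of 1.17. The signals of Scgn on 6 of the 8 arrays were not well above background, which bears on these distances. Genes as dim as Scgn were not among those searched. All these likenesses rest on 8 arrays, include the Derlin-1 difference that chose the genes, and used the Derlin-2 values as well.

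**Figure D3:**
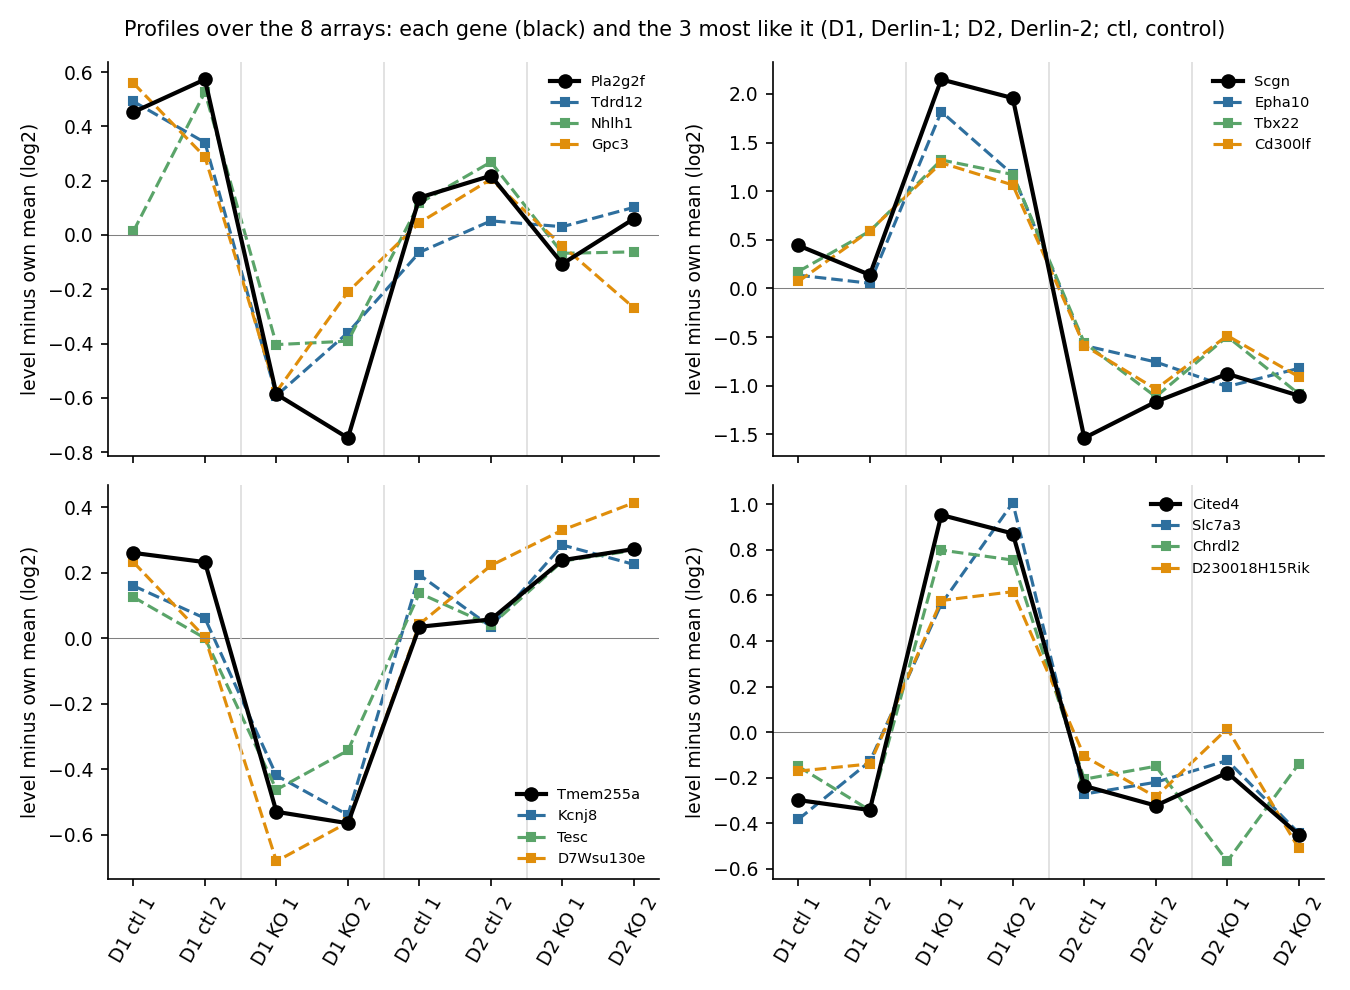
Level minus the gene's own mean over the 8 arrays (log2, vertical) on each array (horizontal) for Pla2g2f, Scgn, Tmem255a and Cited4 in black and the 3 genes with the smallest mean absolute difference from each in colour. The 3 profiles beside Tmem255a dip on the Derlin-1 KO arrays and stand highest or nearly so on the Derlin-2 KO arrays, while those beside Scgn fall short of its height in Derlin-1 KO.

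The relatives of Pla2g2f showed no difference that passed the test. Of 11 genes for secreted phospholipases A2 and their receptor, 8 were measured, none was called in either line, and the median log2 difference was -0.066 for Derlin-1 KO against control and -0.28 for Derlin-2, for which all genes together had medians of -0.020 and 0.0078. The KO arrays lay under both controls for 1 of the 8 in the Derlin-1 line, against 17.9% of all genes, and for 4 of the 8 in the Derlin-2 line, against 14.6% of all genes. In the Derlin-1 line Pla2g5 differed by -0.27 and Pla2g2c by -0.18 (log2). Derlin-2 differences were -0.95 for Pla2g5 and -0.70 for Pla2g3 (limma, adjusted p = 0.980). That of Pla2g5 came from Derlin-2 control replicate 2, at 7.03 beside 4.97 to 5.20 on the other 3 arrays, and was 0.046 without it. The summed signal of the list was 1277 to 1524 in Derlin-2 control and 1180 to 1234 in Derlin-2 KO. The upper control sum includes that high Pla2g5 value, and Pla2g12a gave the largest part of each sum.

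Intracellular phospholipases A2 and the enzymes that turn the released fatty acids into eicosanoids also gave no call. Of 11 cytosolic and other phospholipases A2, 10 were measured, with medians of -0.15 and 0.0077 (log2) in the Derlin-1 and Derlin-2 lines. Pla2g4e, a cytosolic form, differed by 0.40 in the Derlin-1 line and Pla2g4a, the cytosolic form that supplies arachidonic acid, by -0.38, each with groups that did not overlap. Pla2g4d differed by -0.66 and Pla2g7, which inactivates platelet-activating factor, by -0.49 in the Derlin-2 line. Pla2g4d stood at 6.78 on Derlin-2 control replicate 2, beside 5.58 to 5.84 on the other arrays of that line. Its difference ran from -1.13 to -0.19 when each array was left out. Of 14 genes of eicosanoid synthesis 13 were measured, and their medians were -0.0047 and -0.068. The widest Derlin-1 values were those of Ltc4s at -0.17 and Hpgds at -0.13, both with overlapping groups. Alox5, which starts leukotriene synthesis, differed by 0.68 in the Derlin-2 line and Hpgds by -0.33, the latter with overlapping groups.

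Other EF-hand proteins did not share the difference of Scgn. All 24 on the list were measured, with medians of -0.045 for Derlin-1 and 0.038 for Derlin-2 and no call in either line. Rcvrn, or recoverin, was higher on both Derlin-1 KO arrays than on both controls, by 0.47 (limma, adjusted p = 0.641), and Cabp7 differed by -0.53 with groups that did not overlap. Calb2, or calretinin, differed by 0.37 with overlapping groups, since 1 Derlin-1 control array stood at 9.09 and the other at 8.27 while the KO arrays stood at 8.97 and 9.13. Calb1, or calbindin, differed by 0.11, also with overlapping groups. Derlin-2 differences were 0.24 for Calb2 and 0.19 for Cabp7, with groups that overlapped.

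Relatives and partners of Cited4 stayed near 0 in the Derlin-1 line. Of 12 genes 8 were measured, with medians of -0.023 and 0.041 in the Derlin-1 and Derlin-2 lines and no call. Cited1 differed by -0.0016 and Cited2 by 0.062 (log2) in the Derlin-1 line. The coactivator genes Crebbp, which encodes CBP, and Ep300, which encodes p300, differed by 0.16 and -0.10. Tfap2c, a member of the AP-2 factors that CITED proteins bind, differed by 0.77 in the Derlin-2 line (limma, adjusted p = 0.999), and Epas1 by -0.13. Tmem255b, the relative of Tmem255a, differed by -0.041 and -0.0033 in the Derlin-1 and Derlin-2 lines, with overlapping groups in both.

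**Figure D4:**
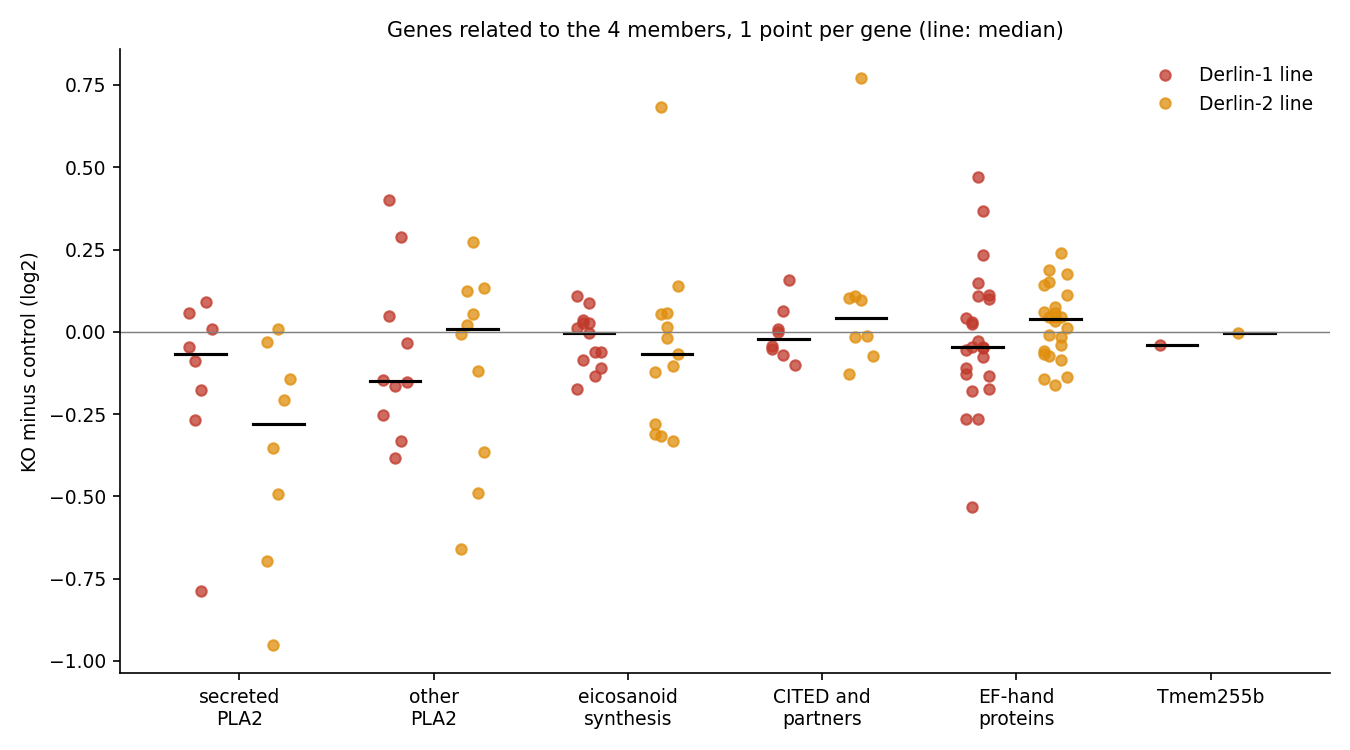
Difference of KO minus control (log2) of the measured genes of each list, with 1 point per gene in the Derlin-1 line (red) and the Derlin-2 line (orange) and a black line at the median; PLA2 stands for phospholipase A2. The secreted phospholipases A2 have a median of -0.28 in the Derlin-2 line, and the EF-hand proteins and the partners of CITED proteins centre near 0 in both lines.

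In bulk tissue, fewer cells of a type and less RNA per cell cannot be told apart. The summed signals of several lists of cell type markers did not overlap between the Derlin-1 groups. With 2 arrays against 2 such a separation is common, since 34.1% of 19832 genes showed it in that line. The summed signal of 10 markers of GABAergic interneurons was 108400 to 115092 in Derlin-1 control and 121271 to 134245 in KO, with 4 of the 10 higher on both KO arrays and 1 lower, where 16.2% of all genes were higher in this way and 17.9% lower. Sst and Npy were higher there by 0.38 and 0.35 (log2), and Gad1 and Gad2 by 0.18 and 0.17, while Slc32a1 differed by -0.13. The sum of 6 microglial markers was 27792 to 28464 in control and 24214 to 25442 in KO, with 4 of the 6 lower against the 17.9% of all genes. In such sums of unlogged signal the brightest markers weigh most, here Sst and Csf1r. The median log2 differences of the GABAergic and microglial lists were 0.064 and -0.13. The sum of 7 markers of choroid plexus, the tissue that secretes cerebrospinal fluid, was 1457 to 1635 in control and 1673 to 1795 in KO, with 3 of the 7 higher on both KO arrays and 1, Kl, lower. Ttr differed by 0.92, between 0.32 and 1.52 when each array was left out, and Kl by -0.26.

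Markers of thalamus and habenula, regions near the dissected tissue, summed to 15936 to 16615 in Derlin-1 control and 20580 to 22546 in KO. Of those 7, Pou4f1 alone was higher on both KO arrays, by 0.69, and Prkcd and Slc17a6 differed by -0.14 and -0.16, lower on both KO arrays. Astrocyte markers summed to 38614 to 39053 in control and 39522 to 40412 in KO. However, of the 6 only Gfap was higher on both KO arrays, Aqp4 and Aldh1l1 were lower, and the median difference was 0.0063. Of all genes in the Derlin-1 line, 16.2% were higher and 17.9% lower on both KO arrays. The sums of granule neurons, mossy cells, newborn neurons, CA pyramidal neurons, oligodendrocytes, endothelium, blood and meninges overlapped between the Derlin-1 groups. The 5 measured markers of newborn neurons were all higher in the Derlin-2 line on both KO arrays, against 17.9% of all genes, with sums of 6049 to 7078 in control and 7966 to 8124 in KO, the GABAergic sum was 136271 to 149086 in control and 122234 to 125659 in KO, and the astrocyte sum was 35890 to 39954 and 32835 to 35503. The GABAergic list had 5 of 10 lower and the astrocyte list 3 of 6 lower and 1 higher, against 14.6% of all genes lower. The blood sum was lower on both Derlin-2 KO arrays, with 1 of 4 markers lower, and so was the meningeal sum, in which Dcn differed by -0.71 while 4 of the other 5 markers were higher. No marker was called in either line, and Draxin, Slc4a5 and Chrna3 did not pass the filter on dim signals. The part of these markers in the values of Pla2g2f, Scgn, Tmem255a and Cited4 was not tested.

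None of the spots of the 4 genes was marked as an outlier on any array, and no spot was saturated. Between 74 and 88 measured spots lay within 5 rows and columns of each, and their median Derlin-1 difference was -0.0012 around Pla2g2f, -0.048 around Cited4, -0.042 around Scgn and -0.033 around Tmem255a (log2), so that the surroundings did not share the differences of the genes themselves.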

How the data were processed

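Each of the 8 arrays (4 groups of 2) gave 1 scanner file. Per the file headers, Agilent Feature Extraction 10.7.1.1 subtracted background and spatial trends to give the deposited intensity per spot, on 59305 gene spots for 56605 probes, with flags for dim and outlier spots. Log2 values are in further tables that the authors deposited, and per the study's methods were quantile-normalized in GeneSpring and set against each probe's median. Fold changes in the same tables were not used. The differences of KO and control in those log2 values equalled differences of unnormalized log2 signals plus a constant, within 0.01, in 100% of 36766 probes of the Derlin-1 line and 36272 of the Derlin-2 line, and equalled quantile-normalized ones plus a constant in 9.32 and 22.6%. They served as an alternative.

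Intensities were floored at 1, put on the log2 scale and quantile-normalized over the 8 arrays. Control spots and spots marked as outliers were left out, spots of a probe were averaged, and 39937 probes well above background on both arrays of at least 1 group were kept. Quantile normalization fixes the distribution of each array, so that a shift common to all genes would not show. A gene with several probes was represented by its brightest, except that genes next in rank are given by the probe that ranked. KO and control were compared within a line on its 4 arrays by limma 3.58.1 in R 4.3.3 over all kept probes, with Benjamini-Hochberg adjustment and a threshold of 0.05, two-sided. A spread pooled with the Derlin-1 line would carry over the choice of genes, so the model over all 8 arrays was an alternative. The script was tested on simulated data. With 2 arrays a group, the number of arrays limits the precision. Beside the 4 genes, the genes named are the 5 next in rank, the 3 most alike in profile, the widest 2 of each list and line among those well above background on all 4 arrays, and, chosen after their values were seen, Amelx, Calb1, Cited1, Cited2 and the marker genes named. The motifs were likewise chosen after a look at the sequences. The 4 genes and the lists were chosen with earlier results of these data known. Alternatives were scaling to the 75th percentile, normexp on gMedianSignal and gBGMedianSignal with an offset of 50 (the files used here have no mean signal), the deposited values, no filter, a replicate block and leaving out each array. Sequences came from RefSeq tables of GRCm38.p6.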

Additional observations from a re-analysis of the deposited data

Results flagged for a closer look

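The log2 difference of Tmem255a was 0.209 in the Derlin-2 line, with both KO arrays above both controls, whereas in the Derlin-1 line both KO arrays lay below both controls. The opposite directions drew attention to it. The difference between the lines was not tested, since the Derlin-1 values chose the gene.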

How the results depend on the processing

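In the Derlin-1 line the 4 genes kept their direction under every alternative run, and the size moved. The rule chose the genes on these arrays, where their groups did not overlap. Leaving out an array therefore could not turn a direction, and nothing is read from the kept direction. Scaling to the 75th percentile gave log2 differences of 1.35 for Cited4, 2.08 for Scgn and -0.68 for Tmem255a, the deposited log2 values gave 1.33, 2.07 and -0.69, and normexp gave 0.89, 0.65 and -0.36 and for Pla2g2f -0.83. Normexp with its offset draws dim signals together by construction. Leaving out each array in turn gave -1.26 to -1.10 for Pla2g2f, 1.19 to 1.27 for Cited4, 1.61 to 1.91 for Scgn and -0.81 to -0.78 for Tmem255a. In the Derlin-2 line none of the 4 passed the threshold under any alternative. Cited4 turned to 0.0037 and Scgn to -0.051 with normexp, and Cited4 ranged from -0.17 to 0.10 when each array was left out, turning to 0.0086 without Derlin-2 control replicate 1 and to 0.10 without Derlin-2 KO replicate 2; the lone array of a group was then assumed to vary like the others. The model over all 8 arrays called 14 probes in the Derlin-2 line, none of them for a gene of the lists, and every other alternative called 0. With the replicate number as a replicate block the differences were the same by construction and no probe was called (0.21 for Tmem255a in the Derlin-2 line). The labels give no reason to pair the numbers, and deviations of same-numbered arrays correlated at 0.27 for Derlin-1 and -0.098 for Derlin-2. Further probes could not be tried, since each of the 4 has 1 probe. Scgn is limited by signal that was not well above background on 6 arrays and Tmem255a by dim signal, which makes their sizes the least certain.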
